A study of Homo sapiens with 14 samples.

Results

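The 8 human genes described here encode the DNA methyltransferases DNMT1, DNMT3A and DNMT3B, their catalytically inactive relative DNMT3L, the maintenance cofactor UHRF1 and the methylcytosine dioxygenases TET1, TET2 and TET3. They were chosen by gene symbol, each matched exactly 1 of the 57445 gene entries of the hPSC and day 11 count tables, and their values played no part in the choice. RNA was sequenced from H9 (WA-09), an established human pluripotent stem cell line, and from cultures differentiated from it towards midbrain dopamine neurons, in 14 libraries of 7 groups with 2 libraries each. All groups come from this 1 line. Day 11 cultures had been exposed to the GSK3 inhibitor CHIR99021 (CHIR), which activates WNT signalling, at 0.7, 3, 5 or 7.5 µM from day 4 to day 10. All 4 arms also had Sonic hedgehog, the BMP and TGF-beta pathway inhibitors LDN and SB431542 until day 7, a ROCK inhibitor at plating, 0.7 µM CHIR up to day 3, and 3 µM CHIR with neurotrophic factors from day 10. Day 16 and day 30 cultures followed the 7.5 µM protocol, with replating at days 11 and 16 and the Notch pathway inhibitor DAPT. The undifferentiated stem cells (hPSC) were grown in Essential 8 medium and had none of these agents. Nothing states that replicates were separate cultures, so a p-value reflects library-to-library spread that may be technical.

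DNA methylation in mammals is placed on cytosines followed by guanine (CpG). DNMT3A and DNMT3B methylate unmodified sites, and DNMT3L stimulates them without being an enzyme. DNMT1 copies the mark onto the new strand after replication, guided by UHRF1, which binds hemimethylated CpGs. TET enzymes oxidise methylcytosine, a first step of its removal. Human pluripotent stem cells are known for strong DNMT3B and TET1 expression.

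The tables hold expression counts and no methylation calls, so the DNA around the listed transcription starts is shown only as the genes' own CpG context. RefSeq (GRCh38.p14) lists starts for 7 of the 8 genes, 18 starts in all, each with a window of 250 bases before and 50 bases after the start. The 3 windows printed belong to the gene of the 7 tested with the largest difference from hPSC (DNMT3B), the one with the largest difference between replicates (TET1) and the one whose ratio of 7.5 over 0.7 µM CHIR was the same in both replicates (UHRF1). Capitals mark CpG.
DNMT3B: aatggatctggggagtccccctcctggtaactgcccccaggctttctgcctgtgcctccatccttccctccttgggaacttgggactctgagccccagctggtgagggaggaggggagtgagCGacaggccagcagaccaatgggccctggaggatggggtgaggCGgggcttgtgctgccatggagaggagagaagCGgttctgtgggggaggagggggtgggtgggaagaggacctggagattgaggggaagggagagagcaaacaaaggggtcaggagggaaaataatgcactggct
TET1: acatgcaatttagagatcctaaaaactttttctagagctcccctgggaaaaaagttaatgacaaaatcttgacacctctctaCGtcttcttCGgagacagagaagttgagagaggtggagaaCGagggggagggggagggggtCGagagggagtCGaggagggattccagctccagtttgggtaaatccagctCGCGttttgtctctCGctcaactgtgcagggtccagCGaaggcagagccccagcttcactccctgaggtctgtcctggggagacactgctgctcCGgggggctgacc
UHRF1: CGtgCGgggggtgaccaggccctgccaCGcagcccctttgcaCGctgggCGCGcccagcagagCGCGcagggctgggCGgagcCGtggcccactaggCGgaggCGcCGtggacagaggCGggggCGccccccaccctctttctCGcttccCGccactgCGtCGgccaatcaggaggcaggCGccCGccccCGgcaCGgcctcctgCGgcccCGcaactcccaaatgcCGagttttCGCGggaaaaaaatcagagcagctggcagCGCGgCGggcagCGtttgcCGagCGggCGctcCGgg
The DNMT3B window (chr20:32779602-32779901, plus strand) surrounds the only start listed for the gene, which lies in an exon 17.5 kb downstream of the gene's 5′ end in GENCODE 29, and it holds 3 CpGs. The TET1 window (chr10:68560087-68560386, plus strand) holds 10 CpGs, and its start lies 319 bases upstream of the GENCODE 29 gene. The UHRF1 window (chr19:4909251-4909550, plus strand) holds 36 CpGs, and its start lies in an exon 6.4 kb into the gene. The median over all 35116 listed starts was 14 CpGs, with quartiles of 4 and 28. Both strands were searched for the E2F words TTTCCCGC and TTTGGCGC and for the TCF/LEF word CTTTGAT. The first UHRF1 start has an E2F match, GCGGGAAA on the printed strand. No other start of these genes had an E2F match, and none had a TCF/LEF match, against 2.27% and 2.62% of all listed starts.

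The hPSC and day 11 libraries held 20.52 to 44.76 M gene counts and the day 16 and day 30 libraries 5.41 to 6.34 M. Marker genes were checked in the hPSC and day 11 libraries, with a gene called higher or lower, or said to pass, at an adjusted p under 0.05 in edgeR. Of 7 pluripotency markers 6 were lower and none higher at day 11 than in hPSC, and all 4 midbrain floor plate markers (FOXA2, LMX1A, OTX2 and CORIN) were higher. Of 7 neural progenitor genes 3 were higher (VIM, PAX6 and SOX1), and of 6 neuron genes 2 were higher (MAP2 and TUBB3), with none lower in either list. POU5F1, a core pluripotency factor, lay between 0.327 and 1.73 CPM (counts relative to the library's total gene counts, TMM-scaled) at day 11, against 412 and 474 CPM in hPSC. Of the markers of other cell types, 1 of 4 mesoderm genes was higher (MESP1) and 1 lower (TBX6), both tested neural crest genes were lower, 1 of 2 tested fibroblast or vascular genes was higher (PDGFRA), and of 2 tested germ cell genes MAEL was higher and DAZL lower. MESP1 averaged at most 0.545 CPM in a day 11 arm. The mesoderm gene T averaged 0.0249, 0.417, 5.09 and 14.7 CPM from 0.7 to 7.5 µM, against 0.0638 CPM in hPSC, and passed as higher at 7.5 µM (7.78 ± 1.28 log2, adjusted p = 0.0103). The day 11 libraries carried a marked length pattern. Among protein-coding genes with exons of 9 kb or longer, the median log2 ratio of replicate 2 over replicate 1 was, from the lowest to the highest concentration, 0.91, 0.91, 0.95 and 0.43, and among those under 3 kb it was −0.85, −0.85, −0.69 and −0.33. In hPSC the same medians were −0.07 and 0.03. For the mean of the day 11 arms against hPSC, the median log2 fold change was −0.18 at 9 kb or longer and 0.31 under 3 kb. All 3 TET genes, DNMT1 and DNMT3A have exonic lengths above 9 kb in GENCODE 29 (9.288 kb for TET1, 16.474 kb for TET2, 12.271 kb for TET3, 9.796 kb for DNMT1 and 12.02 kb for DNMT3A), whereas DNMT3B has 4.63 kb and DNMT3L 1.859 kb. UHRF1 has no entry there under the identifier the files use.

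**Figure D1:**
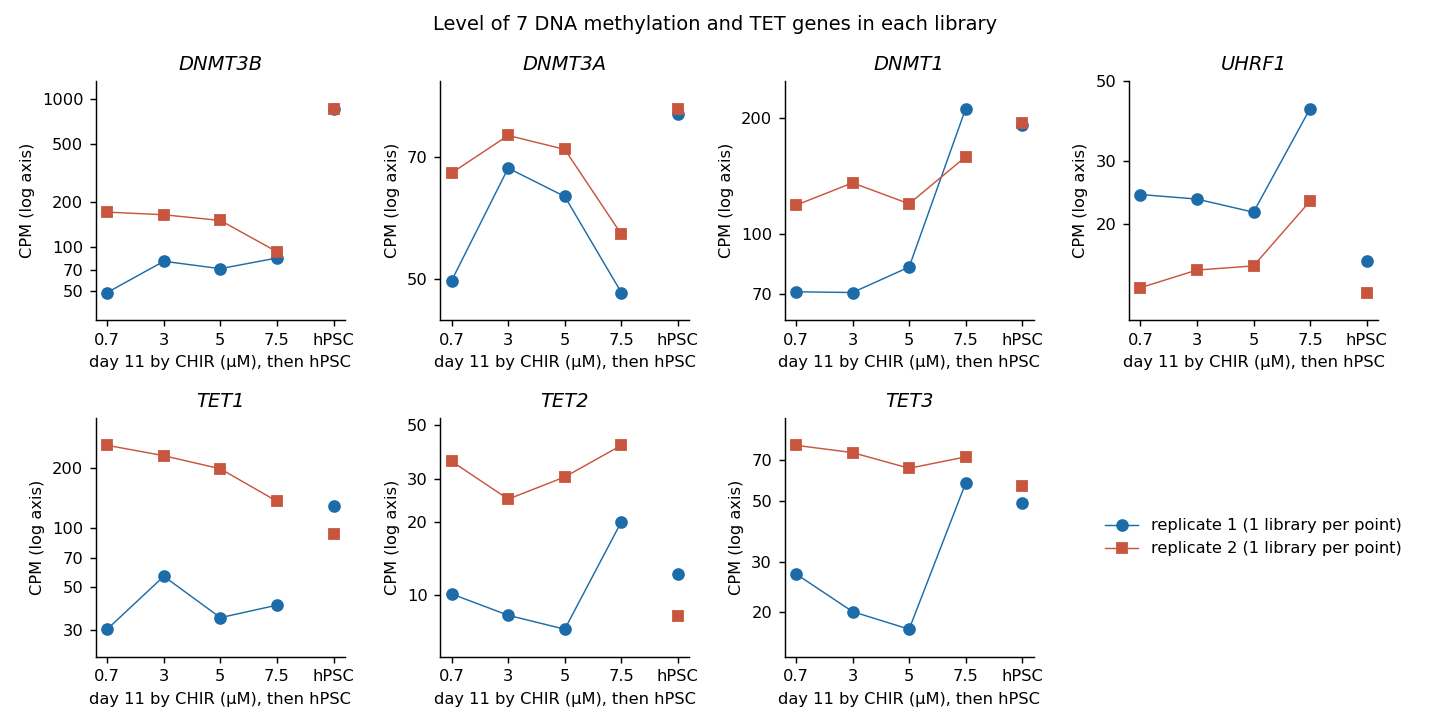
Level of 7 of the 8 genes in CPM (log axis) in each day 11 library by CHIR concentration and in each hPSC library, with 1 point per library and lines joining day 11 libraries of the same replicate number. DNMT3B lay at 49.2 to 172 CPM in the day 11 libraries, against 859 and 861 CPM in hPSC, while the TET1, TET2 and TET3 points of replicate 2 all lay above those of replicate 1 at day 11.

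Per kilobase of exon, DNMT3B was the most abundant of the measured transcripts in hPSC and had the highest mean at day 11. It averaged 23.4 CPM per kb at day 11, against 186 CPM per kb in hPSC. At day 11 TET1 followed at 13.3, DNMT1 at 12.4, DNMT3A at 5.18, TET3 at 4.20 and TET2 at 1.35 CPM per kb. In hPSC the order after DNMT3B was DNMT1 at 19.7, TET1 at 11.9, DNMT3A at 6.61, TET3 at 4.30 and TET2 at 0.621 CPM per kb. In hPSC the 2 libraries of each neighbouring pair in this order did not overlap. At day 11 DNMT3B (10.6 to 37.2 CPM per kb), TET1 (3.27 to 28.2) and DNMT1 (7.21 to 21.7) overlapped widely, so their order there is not resolved.

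The first question was which of these genes differed between day 11 cultures and the stem cells they came from. DNMT3B fell, to 0.125 of the hPSC level on the mean of the 4 CHIR arms. Of the other 6 genes tested, TET2 and UHRF1 passed as higher and DNMT1 as lower when the replicate number entered the model as a block, and not without it. Against hPSC the blocked errors leave out the difference between the day 11 replicate sets, so the blocked p-values there are likely too small. DNMT3A, TET1 and TET3 did not pass on the mean of the 4 arms in either fit. DNMT3L was at 0 to 2 counts per library.

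DNMT3B, the main de novo methyltransferase of pluripotent cells, had 49.2 and 172 CPM at 0.7 µM, 80.0 and 165 CPM at 3 µM, 71.3 and 151 CPM at 5 µM and 84.2 and 92.8 CPM at 7.5 µM (replicates 1 and 2). In hPSC it had 859 and 861 CPM. Every day 11 library lay far below both hPSC libraries, and replicate 2 was the higher one at each concentration. The mean of the day 11 arms was lower than hPSC by a log2 fold change of −3.00 ± 0.44 (SE, 8 against 2 libraries, edgeR, adjusted p = 0.0028), and of −3.09 ± 0.21 with the replicate block (adjusted p = 3.2e-07). Leaving out each library in turn gave log2 fold changes of −3.29 to −2.83 without the block, each past the threshold. At 0.7 µM alone the log2 fold change was −2.96 ± 0.69 (adjusted p = 0.032) and at 7.5 µM −3.28 ± 0.70 (adjusted p = 0.0265). These 2 calls have little margin without the block: the 0.7 µM call was lost without either hPSC library or 0.7 µM replicate 1 (adjusted p = 0.139, 0.167 and 0.101, log2 fold changes of −2.95, −2.91 and −2.31), and the 7.5 µM call was lost without any 1 of the 4 libraries compared (adjusted p = 0.113 to 0.185). The 7.5 µM fold changes were then −3.35 to −3.21, about as large as with all libraries, and in each such fit 1 group is a single library. These comparisons share the hPSC libraries, and 1 spread was estimated over all 10. In bulk RNA, fewer cells expressing a gene and less RNA per cell cannot be told apart.

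DNMT3A, the other de novo enzyme, moved little. It had 49.8 and 67.0 CPM at 0.7 µM, 67.9 and 74.3 CPM at 3 µM, 62.8 and 71.5 CPM at 5 µM and 48.2 and 56.6 CPM at 7.5 µM, against 78.9 and 80.0 CPM in hPSC. All 8 day 11 libraries lay below both hPSC libraries, by a small margin at 3 and 5 µM. The mean difference was −0.36 ± 0.23 log2 (edgeR, adjusted p = 0.31), and −0.37 ± 0.16 with the block (adjusted p = 0.067). At 7.5 µM it passed only with the block, at −0.61 ± 0.21 (adjusted p = 0.038), and not once exonic length was also corrected for (−0.54 ± 0.21, adjusted p = 0.062).

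DNMT3L, the stimulating cofactor, had 1 count among 241 M gene counts at day 11, against 2 among 57.4 M in hPSC, and it had 3 among 22.9 M in the day 16 and day 30 libraries. A count of 0 would allow up to 0.0125 CPM over the day 11 set and 0.047 CPM over hPSC (3 counts over each set, counting error only). The counts seen were above 0 and so allow more than this. It was too low to be tested, and 13.0% of its exonic length overlaps a gene on the opposite strand, from which its reads cannot be told apart if counting ignored strand.

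DNMT1, the maintenance enzyme, had 70.9 and 119 CPM at 0.7 µM, 70.6 and 136 CPM at 3 µM, 82.2 and 120 CPM at 5 µM and 212 and 159 CPM at 7.5 µM, against 192 and 194 CPM in hPSC. The libraries at 0.7, 3 and 5 µM all lay below hPSC, whereas those at 7.5 µM lay on either side of it. The mean of the arms differed from hPSC by −0.73 ± 0.33 log2 (edgeR, adjusted p = 0.16), and by −0.75 ± 0.22 with the block (adjusted p = 0.013). At 0.7 µM the blocked log2 fold change was −1.07 ± 0.30 (adjusted p = 0.011), and at 7.5 µM it was −0.01 ± 0.29 (adjusted p = 0.99). With a length correction and the block the falls were smaller, at −0.53 ± 0.18 on the mean of the arms (adjusted p = 0.021) and −0.86 ± 0.23 at 0.7 µM (adjusted p = 0.0091).

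UHRF1, which recruits DNMT1 to newly copied DNA, had 24.2 and 13.3 CPM at 0.7 µM, 23.5 and 14.9 CPM at 3 µM, 21.6 and 15.3 CPM at 5 µM and 42.0 and 23.2 CPM at 7.5 µM, against 15.8 and 12.9 CPM in hPSC. Both 7.5 µM libraries lay above both hPSC libraries, and at 0.7, 3 and 5 µM replicate 1 lay above hPSC and replicate 2 within the hPSC range. The mean difference was 0.59 ± 0.39 log2 (edgeR, adjusted p = 0.32), and 0.54 ± 0.20 with the block (adjusted p = 0.033). At 7.5 µM it was 1.18 ± 0.47 (adjusted p = 0.18), and 1.12 ± 0.24 with the block (adjusted p = 0.0032).

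TET1, the TET enzyme typical of pluripotent cells, split by replicate. It had 30.4 and 262 CPM at 0.7 µM, 56.5 and 232 CPM at 3 µM, 34.8 and 199 CPM at 5 µM and 40.3 and 136 CPM at 7.5 µM, against 129 and 92.4 CPM in hPSC. Every replicate 1 library at day 11 lay below both hPSC libraries and every replicate 2 library above both. The mean of the arms therefore had a wide error, at 0.13 ± 0.94 log2 without the block (edgeR, adjusted p = 0.94) and −0.29 ± 0.24 with it (adjusted p = 0.32).

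TET2, which lacks the DNA-binding CXXC domain of its relatives, had 10.1 and 35.5 CPM at 0.7 µM, 8.25 and 24.8 CPM at 3 µM, 7.23 and 30.6 CPM at 5 µM and 20.0 and 41.3 CPM at 7.5 µM, against 12.2 and 8.23 CPM in hPSC. All replicate 2 libraries and both 7.5 µM libraries lay above hPSC, and the other replicate 1 libraries lay within the hPSC range or just below it. The mean difference was 1.08 ± 0.75 log2 (edgeR, adjusted p = 0.34), and 0.86 ± 0.25 with the block (adjusted p = 0.011). With a length correction and the block it was 1.12 ± 0.21 (adjusted p = 0.00068). At 7.5 µM the blocked value was 1.51 ± 0.30 (adjusted p = 0.0021).

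TET3, the form known for its role in the zygote and in neural tissue, had 27.3 and 78.9 CPM at 0.7 µM, 20.0 and 74.3 CPM at 3 µM, 17.3 and 65.3 CPM at 5 µM and 57.8 and 71.7 CPM at 7.5 µM, against 49.0 and 56.6 CPM in hPSC. The day 11 libraries spread to both sides of hPSC. The mean difference was −0.05 ± 0.64 log2 (edgeR, adjusted p = 0.96), and −0.21 ± 0.26 with the block (adjusted p = 0.51).

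Counted together, 1 of the 7 tested genes (DNMT3B, lower) passed on the mean of the day 11 arms, when 21.1% of all 19672 genes tested passed. With the block 4 of 7 passed, 2 higher and 2 lower, when 54.6% of all genes did. At 0.7 µM 1 of 7 passed (11.4% of all genes), and 3 of 7 with the block (46.1%). At 7.5 µM 1 of 7 passed (10.1% of all genes), and 4 of 7 with the block (34.8%). The share of the 7 genes was 57.1% with the block on the mean of the arms and 57.1% with the block at 7.5 µM. The median log2 fold change of the 7 genes on the mean of the arms was −0.05, against 0.04 over all genes. The blocked fits subtract the difference between replicate numbers within day 11, and the hPSC libraries belong to neither pair. That difference is thus missing from the blocked SEs and p-values against hPSC, and calls made only with the block are weak.

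**Figure D2:**
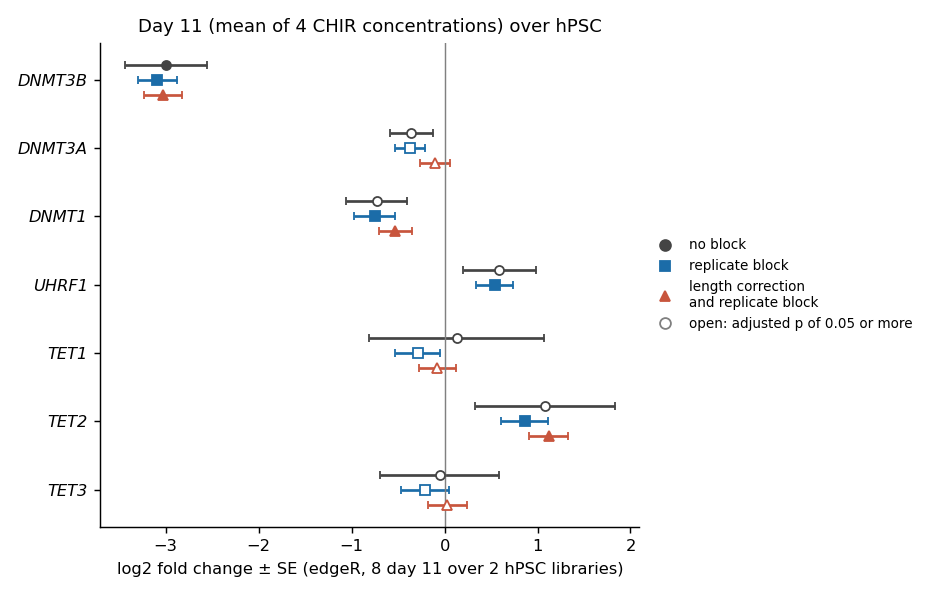
Log2 fold change of day 11 (mean of the 4 CHIR concentrations) over hPSC, with SE bars, for 7 genes without the block, with the replicate block, and with the block and a length correction (not available for UHRF1). DNMT3B stood at −3.00, −3.09 and −3.03 in the 3 fits, and the TET1 bar has an SE of 0.94 without the block and 0.24 with it.

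Of 10 listed partners of the maintenance machinery 4 were lower and none higher on the mean of the arms without the block, with a median of −0.82 log2 against 0.04 over all genes. That is 40% called, against 21.1% of all genes. With the block 6 were lower and 2 higher, 80% against 54.6% of all genes. CDCA7, which recruits the remodeller HELLS to chromatin, averaged 24.1 to 68.6 CPM in the 4 arms, against 130 ± 5.1 CPM (SD, n = 2) in hPSC (−1.97 ± 0.27 log2, edgeR, adjusted p = 0.00195). Its relative CDCA7L (−1.25 ± 0.23, adjusted p = 0.00748) and USP7, a deubiquitinase that binds DNMT1 and UHRF1 (−1.07 ± 0.28, adjusted p = 0.0298), were also lower. DPPA3, which interferes with UHRF1, was detected in 1 day 11 library at 0.0494 CPM, against 0.331 and 0.471 CPM in hPSC. HELLS gave −1.03 ± 0.36 (adjusted p = 0.0771), and passed with the block (−1.07 ± 0.21, adjusted p = 0.00123). In the same comparison MKI67, TOP2A and CCNB1 among 6 proliferation genes were lower and none was higher, at log2 fold changes of −2.26, −1.94 and −1.77, and 5 were lower with the block. PCNA is in both lists. The part of proliferation in the maintenance genes was not tested.

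Among 13 genes of active demethylation and repair, 3 were higher and 1 lower without the block (30.8%, against 21.1% of all genes), and 5 higher and 4 lower with it (69.2%, against 54.6%). GADD45B, a stress-induced gene linked to demethylation, averaged 28.2, 49.1, 38.1 and 14.0 CPM from 0.7 to 7.5 µM, against 1.74 CPM in hPSC (4.07 ± 0.74 log2, edgeR, adjusted p = 0.00732). Its relative GADD45A (1.78 ± 0.42, adjusted p = 0.0212) and the CXXC-domain gene CXXC5 (1.14 ± 0.29, adjusted p = 0.0269) were higher, and the glycosylase NEIL3 was lower (−1.73 ± 0.29, adjusted p = 0.00476). TDG, the glycosylase that excises oxidised methylcytosine, gave −0.74 ± 0.27 (adjusted p = 0.0916) without the block and −0.75 ± 0.18 (adjusted p = 0.00371) with it. QSER1, described as a partner of TET1 that keeps promoters unmethylated, gave −1.70 ± 0.54 (adjusted p = 0.0613), and −1.85 ± 0.19 (adjusted p = 9.11e-06) with the block.

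Of 8 methyl-CpG readers, MBD1 was higher (0.84 ± 0.24 log2, edgeR, adjusted p = 0.0426) and none was lower without the block (12.5%, against 21.1% of all genes), and 2 were higher and 2 lower with it (50%, against 54.6%). MBD3 gave 1.77 ± 1.05 (adjusted p = 0.27), and passed with the block (1.40 ± 0.37, adjusted p = 0.00709). Of 10 tested genes of targeting and imprint protection, the pluripotency-associated pair DPPA4 (−4.41 ± 0.37, adjusted p = 0.000306) and DPPA2 (−2.73 ± 0.37, adjusted p = 0.00192) were lower and none was higher (20%, against 21.1% of all genes), and 4 were lower with the block (40%, against 54.6%). TRIM28, the corepressor of zinc-finger repressors, gave 0.55 ± 0.60 (adjusted p = 0.555), and its partner ZFP57 was at 0.0819 CPM or less at day 11, against 0.290 and 0.386 CPM in hPSC, too low to be tested.

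Of 11 genes of S-adenosylmethionine and cofactor supply, 2 were lower and none higher without the block (18.2%, against 21.1% of all genes), and 5 were lower and 2 higher with it (63.6%, against 54.6%). IDH1, which makes the 2-oxoglutarate that TET enzymes consume, gave −2.02 ± 0.23 log2 (edgeR, adjusted p = 0.000929), and MTHFD1 of the folate cycle −1.80 ± 0.23 (adjusted p = 0.00142). MAT2A, which makes S-adenosylmethionine, gave −1.07 ± 0.34 (adjusted p = 0.0618), and passed with the block (−1.11 ± 0.19, adjusted p = 0.000351).

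The second question was whether these genes depended on the CHIR concentration at day 11. No member passed in any of 4 pairwise comparisons or in the slope per doubling of the concentration, with or without the block. Between 7.5 and 0.7 µM the largest blocked differences of the 7 genes were those of DNMT1 and UHRF1, and neither passed in edgeR.

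For 7.5 over 0.7 µM, UHRF1 was 1.74-fold higher in replicate 1 and 1.74-fold higher in replicate 2, the same ratio in both. The log2 fold change was 0.80 ± 0.51 (edgeR, adjusted p = 0.78), and 0.80 ± 0.25 with the block (adjusted p = 0.069). DNMT1 was 2.99-fold higher in replicate 1 and 1.34-fold higher in replicate 2, a difference of 0.97 ± 0.49 log2 (adjusted p = 0.68), and of 1.06 ± 0.33 with the block (adjusted p = 0.065). DESeq2 with the block put DNMT1 past the threshold (1.01 ± 0.35, adjusted p = 0.030). Without 7.5 µM replicate 2, the blocked log2 fold changes of DNMT1, UHRF1, TET2 and TET3 were 1.52, 0.83, 0.94 and 1.15. Those of DNMT3B, TET1 and DNMT3A were 0.44, 0.03 and −0.20. The 7.5 µM arm is then 1 library, assumed to vary like the other concentrations.

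DNMT3B and TET1 had no common direction between 7.5 and 0.7 µM. DNMT3B was 1.71-fold in replicate 1 and 0.540-fold in replicate 2, and TET1 was 1.33-fold in replicate 1 and 0.521-fold in replicate 2. TET3 was 2.11-fold in replicate 1 and 0.908-fold in replicate 2. TET2 was higher in both, at 1.99-fold and 1.16-fold, and DNMT3A lower in both, at 0.966-fold and 0.847-fold. The replicate 2 over 1 length trend was also smaller at 7.5 µM than at the other concentrations, as given above, and the part it had in these ratios was not tested apart from the length correction. With that correction and the block, DNMT1 gave 0.85 ± 0.25 log2 (adjusted p = 0.057).

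**Figure D3:**
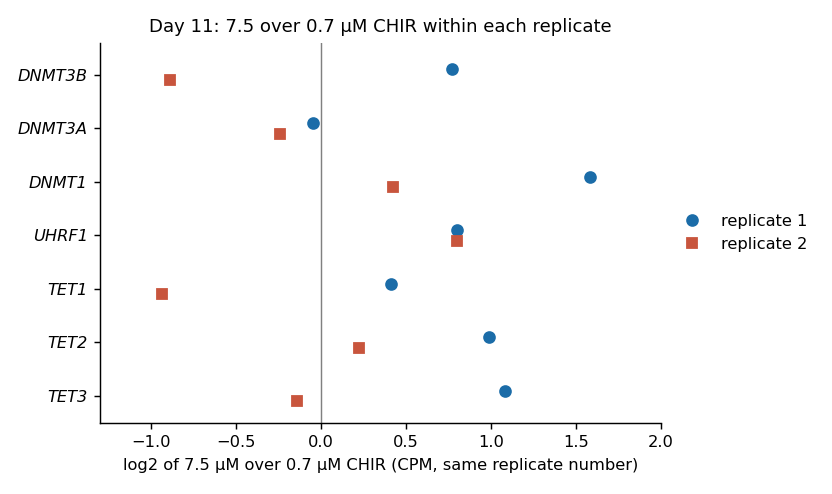
Log2 ratio of 7.5 over 0.7 µM CHIR within each replicate number, 1 point per pair of libraries. The UHRF1 points coincide at 0.80, the DNMT1 points lie at 1.58 and 0.42, and the DNMT3B, TET1 and TET3 points lie on opposite sides of 0.

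Between 7.5 and 0.7 µM 0 of 7 genes passed, as did 0% of all 18709 genes tested without the block and 10.5% with it. At an unadjusted p under 0.05, edgeR without the block gave 0 of the 7 and 1641 of all 18709 genes. With the block it gave 2 of the 7 (DNMT1 and UHRF1) and 5406 of all 18709 genes. DESeq2 without the block gave 0 of the 7 and 575 genes past the adjusted threshold. Between 5 and 0.7 µM it was 0 of 7, against 0% and 1.13% of all genes. Between 3 and 0.7 µM it was 0 of 7, against 0% and 0.0214%. Between 7.5 and 5 µM it was 0 of 7, against 0% and 6.53%, and for the slope 0 of 7, against 0.134% and 1.19%. None of the 7 had an unadjusted p under 0.05 in these 4 comparisons without the block. With it, only DNMT1, TET2, TET3 and UHRF1 between 7.5 and 5 µM did (edgeR, log2 fold changes of 0.95, 0.95, 1.01 and 0.78, adjusted p = 0.0924, 0.0768, 0.113 and 0.0818). All genes at that level numbered 567, 276, 1168 and 1106 without the block, and 1893, 1400, 5323 and 2251 with it. DESeq2 without the block called 116, 14, 141 and 330 genes but no member. At 5 against 0.7 µM the log2 fold changes of the 7 genes ran from −0.36 to 0.20 and at 3 against 0.7 µM from −0.47 to 0.28, with SEs of 0.35 to 1.28.

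With the block, 2 of the 9 tested maintenance partners were higher and 1 lower at 7.5 than at 0.7 µM, with a median of 0.42 log2 against 0.07 over all genes. Of all genes 10.5% were called in that fit, against 33.3% of these partners, 27.3% of the cofactor genes, 23.1% of the demethylation genes, 12.5% of the readers and 10% of the targeting genes, which are lists of 8 to 13 genes. CDCA7 averaged 68.6 CPM at 7.5 µM, against 29.4 CPM at 0.7 µM (1.25 ± 0.33 log2, edgeR, adjusted p = 0.0398), and PCNA, the replication clamp that also binds DNMT1, 218 CPM against 96.2 CPM (1.17 ± 0.24, adjusted p = 0.0151). NAA10 was lower (−0.92 ± 0.24, adjusted p = 0.0402), and HELLS gave 0.79 ± 0.32 (adjusted p = 0.136). Of 11 genes of S-adenosylmethionine and cofactor supply, 2 were higher, MAT2A (1.22 ± 0.27, adjusted p = 0.0198) and MTHFD1 (1.08 ± 0.23, adjusted p = 0.0176), and D2HGDH was lower (−1.11 ± 0.30, adjusted p = 0.0444). Of 13 demethylation genes NEIL3 was higher (1.74 ± 0.33, adjusted p = 0.00974), and NEIL1 (−1.86 ± 0.37) and CXXC5 (−1.01 ± 0.27) were lower. The reader ZBTB38 was higher (2.36 ± 0.40, adjusted p = 0.00668), and DPPA2 was lower (−2.12 ± 0.55, adjusted p = 0.0360).

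In the same blocked fit 4 of 6 proliferation genes (MKI67, CCNB1, PCNA and TOP2A) were higher at 7.5 than at 0.7 µM and none was lower, 66.7% called against 10.5% of all genes. MKI67 averaged 298 CPM at 7.5 µM, against 91.7 CPM at 0.7 µM (1.71 ± 0.24, adjusted p = 0.00258). Markers of cell state also moved with the concentration in this fit. T was higher (9.73 ± 0.94 log2, adjusted p = 0.000637, a size that depends on the prior count since T had 1080 counts at 7.5 µM and 1 at 0.7 µM), as were COL1A1 and OTX2 (1.94 and 1.45), while PAX6, CORIN, FABP7, DCX and MSI1 were lower (−5.03, −3.35, −2.24, −1.36 and −0.94). T also passed in the slope per doubling without the block (3.15 ± 0.44, adjusted p = 0.0429). The part of proliferation or of these other markers in the DNMT1 and UHRF1 values was not tested. None of the companion genes or markers passed between 7.5 and 0.7 µM without the block.

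The third set of values concerns the replicates themselves, which at day 11 lay further apart for the TET genes than the means of the concentrations did. This comparison was chosen after the values were seen. Each replicate number is 1 set of libraries whose deviations go together across the concentrations. The SEs and p-values of this comparison therefore measure agreement across the 4 concentrations, not variation between further sets. Averaged over the 4 concentrations, TET1 was higher in replicate 2 than in replicate 1 by 2.35 ± 0.24 log2 (edgeR with concentration in the model, adjusted p = 0.00029), TET2 by 1.62 ± 0.22 (adjusted p = 0.00052) and TET3 by 1.42 ± 0.27 (adjusted p = 0.0018). DNMT3B was higher by 1.02 ± 0.25 (adjusted p = 0.0063). UHRF1 was the only one of the 7 lower in replicate 2, at −0.72 ± 0.18 (adjusted p = 0.0067). DNMT1 (0.46 ± 0.23, adjusted p = 0.11) and DNMT3A (0.24 ± 0.16, adjusted p = 0.22) did not pass. In all, 5 of 7 genes passed, when 55.6% of all genes tested did.

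Long genes as a class were higher in replicate 2. Among protein-coding genes with exons of 9 kb or longer 60.1% were higher and 6.78% lower, and among those under 3 kb 7.86% were higher and 53.2% lower. After a smooth length trend was removed from every library, the difference between replicates was 1.74 ± 0.20 log2 for TET1 (edgeR, adjusted p = 0.00073), 0.67 ± 0.17 for TET2 (adjusted p = 0.0094) and 0.61 ± 0.21 for TET3 (adjusted p = 0.033). DNMT3B was nearly unmoved by the correction, at 0.98 ± 0.24 (adjusted p = 0.0080). DNMT3A changed sign, to −0.55 ± 0.16 (adjusted p = 0.017), and DNMT1 gave −0.20 ± 0.18 (adjusted p = 0.37). UHRF1 has no length and could not be corrected.

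**Figure D4:**
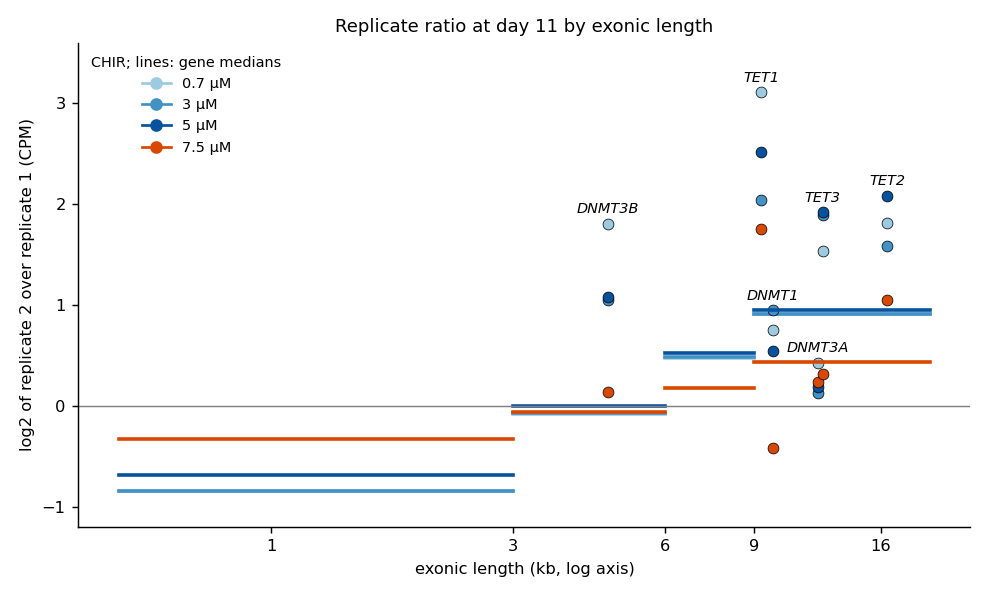
Log2 ratio of replicate 2 over replicate 1 at each day 11 concentration against exonic length (kb, log axis), with points for 6 genes and horizontal lines for the median of protein-coding genes in 4 length classes (the 0.7 µM line lies under the 3 µM line). TET1 lay at 1.75 to 3.11, above the class medians of 0.43 to 0.95 for genes of 9 kb or longer, and DNMT3A at 0.13 to 0.43, below the median of its class at each concentration.

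The genes most like 4 of the members were sought by Pearson correlation of log2 CPM over the 10 hPSC and day 11 libraries among 11996 genes. The points share 1 stem cell pair and the 2 replicate sets of day 11, so the correlations describe these libraries only. DNMT3B was closest to ESRP1, an epithelial splicing regulator (r = 0.995), DSCR3 (r = 0.988) and ARHGAP44 (r = 0.986). ESRP1 had at most 1.60 CPM at day 11, against 210 and 243 CPM in hPSC. UHRF1 was closest to C10orf32 (r = 0.963), TLE3, a Groucho-family corepressor (r = 0.958), and PTPRN2 (r = 0.949).

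TET1 was closest to LNX2 (r = 0.993), the histone demethylase gene JHDM1D (r = 0.993) and DIP2A (r = 0.988). LNX2 had 11.2 to 16.9 CPM in day 11 replicate 1 libraries and 32.1 to 50.8 CPM in replicate 2 libraries, the split seen in TET1. TET3 was closest to DOCK1 (r = 0.992), the chromatin remodeller subunit gene ARID1B (r = 0.989) and RHOBTB3 (r = 0.985). The share of the 11996 genes with r above 0.9 was 3.14% for DNMT3B, 5.12% for TET1 and 6.71% for TET3, against 0.217% for UHRF1. Among the members themselves, over the 8 day 11 libraries, r was 0.97 between TET2 and TET3, 0.94 between DNMT3B and TET1 and −0.82 between DNMT3A and UHRF1.

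The last comparison was day 30 against day 16 of the 7.5 µM protocol. These tables come from another counting run with another gene set and were scaled separately, so their levels are not tested against the earlier ones. The neuron gene STMN2 averaged 144 CPM at day 30 (137 and 152 CPM) and 88.5 CPM at day 16 (12.9 and 164 CPM). It did not pass, nor did any other of 5 tested neuron genes, 4 of which had log2 fold changes above 0. MAP2 averaged 93 CPM at day 30 and 125 CPM at day 16 (−0.42 ± 0.55 log2, edgeR, adjusted p = 0.70). SOX2 was listed at 0 in all 4 libraries. TUBB3, another neuron marker, has over 1 gene entry. Its entry with the most counts in the hPSC and day 11 libraries averaged 0.0979 CPM at day 30 and 0 CPM at day 16. Values of any other TUBB3 entry are not given here. UHRF1, DNMT1, DNMT3A, DNMT3B, TET1 and TET3 were each at 15.8 CPM or below in all 4 libraries, whereas TET2 had 28.8 and 27.8 CPM at day 30 and 23.7 and 13.8 CPM at day 16. TET2 was the member with the most counts in each of these libraries, and it is also the longest of the members with a length. Its day 16 mean of 1.14 CPM per kb lay below those of DNMT1 (1.32) and DNMT3B (1.17). At day 30 its mean of 1.72 CPM per kb was the highest of those with a length, ahead of DNMT3B at 1.25.

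At day 30 DNMT1 had 8.22 and 6.31 CPM, against 15.6 and 10.2 CPM at day 16 (−0.83 ± 0.68 log2, edgeR, adjusted p = 0.50). DNMT3A had 9.20 and 15.2 CPM at day 30, against 13.5 and 6.14 CPM at day 16 (0.30 ± 0.68, adjusted p = 0.83). DNMT3B had 4.11 and 7.42 CPM at day 30, against 7.06 and 3.81 CPM at day 16 (0.07 ± 0.76, adjusted p = 0.97). The DNMT1 libraries did not overlap between the days, and those of DNMT3A and DNMT3B did.

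TET1 had 2.94 and 4.45 CPM at day 30, against 7.31 and 2.54 CPM at day 16 (−0.43 ± 0.78 log2, edgeR, adjusted p = 0.79). TET3 had 4.90 and 8.72 CPM at day 30, against 15.8 and 4.87 CPM at day 16 (−0.61 ± 0.73, adjusted p = 0.67). TET2 gave 0.59 ± 0.60 (adjusted p = 0.60), with both day 30 libraries above both day 16 libraries, while those of TET1 and TET3 overlapped. Without day 16 replicate 1 the TET2 log2 fold change was 1.06. Without day 16 replicate 2 those of DNMT1 and TET3 were −1.04 and −1.14. In each of these fits day 16 is 1 library. The median over all genes was −0.18 log2, and fold changes are read against it. UHRF1 had 2 and 0 counts at day 30, against 22 and 7 counts at day 16, a ratio of 0.0832 for the summed counts (95% interval from 0.00962 to 0.329, counting error only), and did not pass the low-count filter with all 4 libraries. Without day 16 replicate 2 it passed the filter, with a log2 fold change of −3.66 ± 1.12 (edgeR).

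In all 0 of 6 tested members passed, when 11% of all 15435 genes tested passed, and 0 of 6 with the block, when 6.91% did. None of the 6 had an unadjusted p under 0.05, and DESeq2 called none. Of 6 proliferation genes 5 were lower at day 30 and none was higher, among them MKI67 with 0.557 and 0.979 CPM at day 30, against 8.89 and 16.0 CPM at day 16 (−3.99 ± 0.89 log2, edgeR, adjusted p = 0.00227). Other markers differed too: NES, MSI1 and VIM of 5 tested progenitor genes (−2.36, −2.17 and −2.03), OTX2 (−2.86) and LIN28A (−4.43) were lower at day 30, and the neural crest and glial gene SOX10 was higher (2.51 ± 0.81, adjusted p = 0.0389). With the block MSI1, VIM and SOX10 no longer passed (adjusted p = 0.151, 0.0538 and 0.0888). The part of these markers in the members' values was not tested. Of 6 tested maintenance partners only PCNA passed (−2.62 ± 0.86, adjusted p = 0.0424), and among 8 tested genes of targeting only EZH2, the H3K27 methyltransferase (−1.87 ± 0.61, adjusted p = 0.0422). MAT2B was lower among 10 tested genes of S-adenosylmethionine and cofactor supply (−3.34 ± 0.96, adjusted p = 0.0182). With the block these 3 gave adjusted p = 0.173, 0.144 and 0.140. The reader ZBTB38 was higher at day 30 (3.21 ± 0.86, adjusted p = 0.0117), the only one of 7 tested readers to pass, and none of 9 tested demethylation genes did.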

How the data were processed

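The authors deposited 1 table of raw read counts by gene for each library, and the 7 groups follow the sample labels. Tools named, with no role, in the submitters' processing notes are HTSeq 0.5.3, featureCounts 1.4.2, STAR 2.4.2a and DESeq2 1.12.4, with the build hg19. The kit, its strandedness and how reads were counted are not stated there. In the hPSC and day 11 tables, 37.41% to 44.33% of counts lie in entries that name no gene, and these were left out. The records differ on day 16 or day 20 for 1 group, and the labels' day 16 is used.

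Tests ran in edgeR 4.0.16 under R 4.3.3 with TMM scaling, filterByExpr, robust quasi-likelihood F-tests and Benjamini-Hochberg adjustment over all genes tested, at a threshold of 0.05. Comparisons with hPSC used 10 libraries (19672 genes), dose comparisons the 8 day 11 libraries (18709 genes), and day 30 against day 16 its 4 libraries (15435 genes). CPM are TMM-scaled, and SE is the log2 fold change over the root of F. The scripts were tested on simulated data.

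Same-numbered day 11 libraries carry a common code in their descriptions, as do same-numbered day 16 and day 30 libraries, and these numbers were taken as pairs. Deviations from the group means correlated at 0.64 to 0.86 between day 11 groups, at −0.18 to −0.11 with hPSC and at −0.22 between day 16 and day 30. In comparisons with hPSC the block covers the day 11 libraries alone, and blocked values are given where they change a call. The length correction removes from each library a lowess trend of log2 CPM over exonic length (GENCODE 29, 97.3% of tested genes). DESeq2 1.42.0, RLE scaling, no low-count filter and leaving out each library were alternatives. The likeness search took genes averaging at least 5 CPM, with a prior count of 2.

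Companion genes are named by rule, being the passing ones with the largest change, at most 4 per list, and 12 fixed genes, of which 1 is not reported here. Members, lists and tests were chosen with earlier results of these data known.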

Additional observations from a re-analysis of the deposited data

Results flagged for a closer look

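TET1 was picked out because its replicates moved in opposite directions relative to the stem cells. Day 11 replicate 2 over replicate 1 gave a log2 fold change of 2.35 (edgeR, tested in the blocked fit, adjusted p = 0.00029). That p-value measures agreement across the 4 concentrations, in a comparison chosen after the values were seen. All 4 replicate 2 libraries (136 to 262 CPM) lay above both hPSC libraries (129 and 92.4 CPM), and all 4 replicate 1 libraries (30.4 to 56.5 CPM) lay below them. The difference is 1.74 after the length correction.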

How the results depend on the processing

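Counts of members that passed moved mainly with the replicate block. On the mean of the day 11 arms 1 member passed, and 4 with the block in edgeR and in DESeq2 and 3 with the block and the length correction, which leaves UHRF1 untested for want of a length while the other 3 still pass. At 0.7 µM 1 passed, and 3 in each of these blocked fits. At 7.5 µM 1 passed, and 4 with the block in both tools and 2 with the block and the length correction, where UHRF1 was again untested and DNMT3A no longer passed. Of all genes, DESeq2 with the block called 43.3% on the mean, 39.6% at 0.7 µM and 30.2% at 7.5 µM. The block with the length correction called 56.6%, 48.4% and 37.6%, in the same order. Leaving out 1 library gave 1 to 6 members on the mean (1 each without the block, 1 to 6 with it), 0 to 2 at 0.7 µM (0 to 1 without the block, 1 to 2 with it) and 0 to 6 at 7.5 µM (0 each without the block, 2 to 6 with it). Between 7.5 and 0.7 µM 0 passed, and 1 in DESeq2 with the block, with 0 to 4 when a library was left out. Between 7.5 and 5 µM 0 passed, and 2 (DNMT1 and TET2) in DESeq2 with the block, with 0 to 4 when a library was left out. Both upper values arise without 7.5 µM replicate 2, where that arm is 1 library. The shares of all genes called with a library left out are not given for the day 11 fits. The counts of members in those fits are therefore not read as a result about these genes. DESeq2 with the block and all libraries called 16.4% of all genes between 7.5 and 0.7 µM, and 16.8% between 7.5 and 5 µM.

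Between day 30 and day 16 0 members passed with all libraries, and members' calls changed only where day 16 was 1 library. Without day 16 replicate 1 the TET2 log2 fold change was 1.06. Without day 16 replicate 2 those of DNMT1, TET3 and UHRF1 were −1.04, −1.14 and −3.66. UHRF1 did not pass the low-count filter with all 4 libraries. Counts over all genes also swung widely between these fits, as given below. The lone library of a day is then assumed to vary like the other day. A crossed pairing of day 16 and day 30, added after seeing the data, gave 0 members and 1749 genes. DESeq2 with the block, blocked fits with a library left out, the length correction and the replicate comparison were also chosen after seeing the data.

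Over all genes, edgeR called 4152 on the mean of the day 11 arms, and 10732 with the block. It called 2248 at 0.7 µM, and 9064 with the block (DESeq2 without it 4194), and 1978 at 7.5 µM, and 6838 with the block (DESeq2 without it 3381). Between 7.5 and 0.7 µM it called 0, and 1967 with the block, where DESeq2 called 575 and 2980. Between 5 and 0.7 µM the counts were 0 and 211, between 3 and 0.7 µM 0 and 4, between 7.5 and 5 µM 0 and 1221, and for the slope 25 and 222. Between day 30 and day 16 they were 1702 and 1067, with 39 without day 30 replicate 1 and up to 8078 without day 16 replicate 2.

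DNMT3A reversed, to −0.55, between replicates under the length correction. The cause of the other shifts was not tested. RLE scaling, DESeq2 without the block and no low-count filter changed no member's call. The later libraries hold 5.41 to 6.34 M gene counts, and with all 4 UHRF1 and DNMT3L did not pass the low-count filter there.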
